A study of Mus with 8 samples.

Results

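The genes described here make, break down and sense oxysterols, the hydroxylated forms of cholesterol, and move cholesterol out of cells. They are 10 genes in all: the enzyme genes Cyp7b1, Ch25h and Cyp27a1, the receptor genes Nr1h2 and Nr1h3, the efflux genes Abca1, Abcg1 and Apoe, and Mylip and Npc1. They were chosen by name from this pathway with earlier results of the same cultures in view, among them the difference between the groups and the relation of Cyp7b1 and Ch25h to Usp18, a gene induced by interferon. Both are therefore given as descriptions, and where the members are counted in the fit across all genes, the counts are set beside those for all genes and nothing is read from them. All 10 genes had a probe on the array, 20 probes in all, among 20289 genes with a probe. 6 of the 10 passed the filter on dim probes, which asked for detection on at least 4 of the 8 arrays, and stood among the 11859 genes tested.

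Vascular smooth muscle cells were cultured from the aortas of male C57 black 6 mice aged 8 weeks and profiled at passage 1, 1 Illumina bead array per culture. All 8 cultures carried the floxed Tie2 (Tek) gene, which encodes a receptor for angiopoietins. The 4 cultures without a Cre transgene are called WT, and the 4 cultures with a Cre transgene driven by the smooth muscle promoter of SM22α are called KO, so that no group carried Cre without the floxed gene. The WT arrays and KO replicates 1 and 2 lay on slide 1, and KO replicates 3 and 4 on slide 2. The labels join several numbers to the name of each culture without saying whether these are pooled mice, or whether cultures came from separate mice, so the spread between cultures may be partly technical.

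Oxysterols are made from cholesterol by enzymes such as cholesterol 25-hydroxylase (Ch25h) and sterol 27-hydroxylase (Cyp27a1) and are hydroxylated further, towards bile acids or towards ligands of immune cell receptors, by the oxysterol hydroxylase Cyp7b1. They activate the liver X receptors, encoded by Nr1h3 (LXRα) and Nr1h2 (LXRβ), which raise the transcription of the transporters Abca1 and Abcg1, of apolipoprotein E and of Mylip, a ubiquitin ligase that degrades the LDL receptor. Npc1 carries cholesterol out of the lysosome. In macrophages Ch25h is known as an interferon-induced gene, and in the vessel wall the efflux genes are best known from lipid-laden macrophages and smooth muscle cells.

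Scanner intensities had medians of 94.7 to 128.1 over the arrays, and 44.9% to 49.5% of probes had a detection p-value under 0.05. Tek, the deleted gene, was lower in each KO culture (4.78, 5.56, 5.36 and 5.26 on the log2 scale) than in each WT culture (6.44, 7.42, 6.66 and 6.35). Its exact permutation p, two-sided, was 0.0286, the smallest that 4 cultures against 4 allow, while its limma adjusted p over all genes was 0.81. The smooth muscle markers were present: all 11 passed the filter, Myh11 at 5.23 to 8.12 in WT and 8.03 to 8.75 in KO. Marker genes of macrophages and leukocytes were also present, 18 of 21 passing the filter. Their summed normalised intensity ran from 6073 to 62583 in WT and from 4331 to 33993 in KO. All 18 were lower in KO by sign, with a median log2 difference of -0.96, or -0.40 without WT replicate 2, and all 11 smooth muscle markers were higher by sign, with a median of 0.45, or 0.40 without that culture. In the KO cultures of slide 2 the mean of the 18 macrophage markers, each centred on its mean over the cultures, was -2.21 and -1.13. In the KO cultures of slide 1 it was 0.90 and 0.47, and in WT it ran from -1.60 to 2.10, so the lower KO values lay on slide 2. 0 genes of either list passed an adjusted p of 0.05 in limma. The differences of the members stand beside these shifts, and the part of cell type in them was not tested. 7 of 10 endothelial markers passed, and Kdr, Tie1 and Vwf did not. 9 fibroblast markers passed, and none of the 6 adipocyte markers with a probe did.

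WT replicate 2 stood apart from the other cultures. It had the highest level of the 8 for 21.0% of all genes tested and the lowest for 21.3%, the largest share of any culture in both. It held the highest level of 18 of the 19 tested interferon-stimulated genes and of 13 of the 18 macrophage markers. The mean of its smooth muscle markers, each centred on its mean over the cultures, was -1.04 on the log2 scale, against -0.30 to 0.42 in the other 7. The mean of its fibroblast markers was the highest of the 8, at 0.76 against -0.65 to 0.32, and that of its endothelial markers the lowest, at -0.79 against -0.26 to 0.54. The part of other cell types in the levels of this culture was not tested. Values without it are given beside the differences of the members that rest on it, and for other genes where leaving it out moves the difference by more than 1.5 times. In RNA from a whole culture, fewer cells of a type and less RNA per cell cannot be told apart.

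Cyp7b1 was the member that differed most among the cultures. The log2 intensities of Cyp7b1 were 7.32, 12.86, 8.91 and 8.52 across WT replicates 1 to 4, and 6.71, 8.49, 6.77 and 7.63 across KO replicates 1 to 4. WT replicate 2 stood alone at the top, 3.95 log2 units above the next culture. WT replicates 3 and 4 also lay above each KO culture, the latter by little, while WT replicate 1 lay among them, so the groups overlapped. Among genes highest in WT replicate 2, Cyp7b1 ranked 3 by its gap to the next culture. The signal in that culture came from 43 beads with a mean scanner intensity of 6830 and a standard error between beads of 261, against 654 ± 37.2 (standard error, 45 beads) in WT replicate 3, the next highest. The WT mean was 9.40 ± 2.40 (SD, n = 4) and the KO mean 7.40 ± 0.84 (SD, n = 4), a log2 difference, KO minus WT, of -2.0 with a standard error of 1.06. Without WT replicate 2 the difference was -0.85 with a standard error of 0.53. Within slide 1 it was -1.80, and in the authors' deposited value table -1.63.

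Ch25h was bright and nearly level. It stood at 11.63, 11.78, 11.52 and 11.55 across WT replicates 1 to 4, and 11.57, 11.69, 10.27 and 11.76 across KO replicates 1 to 4. KO replicate 3 alone was low, 1.25 log2 units below the next culture, and the other 7 lay within a narrow band that held both groups. Its scanner intensity in KO replicate 3 was 1337 ± 62.1 (standard error, 38 beads), against 2514 to 3615 in the others. Among genes lowest in that culture, it ranked 18 by this gap. The WT mean was 11.62 ± 0.12 (SD, n = 4) and the KO mean 11.32 ± 0.71 (SD, n = 4), a log2 difference of -0.30 with a standard error of 0.32, which became 0.05 without KO replicate 3 and 0.01 within slide 1. Macrophage markers were also lowest in KO replicate 3, in 14 of 18 genes, and the fibroblast marker mean was lowest there too, at -0.65. Their part in the low Ch25h level was not tested. The next lowest macrophage marker means were -1.60 in WT replicate 3 and -1.13 in KO replicate 4. Ch25h was 11.52 in the former, the second lowest level, and 11.76 in the latter, the second highest.

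Cyp27a1, the mitochondrial enzyme that hydroxylates the cholesterol side chain, was dim. Through its brightest probe it stood at 5.60, 6.54, 5.00 and 5.39 across WT replicates 1 to 4, and 5.65, 4.46, 5.44 and 5.86 across KO replicates 1 to 4. WT replicate 2 was the highest culture, KO replicate 2, where the probe was not detected, the lowest, and the groups overlapped. The log2 difference was -0.28 with a standard error of 0.39, 0.03 without WT replicate 2 and -0.58 within slide 1. The other Cyp27a1 probes that passed gave -0.14 and -0.21 and correlated with the brightest probe at r = 0.38 and 0.52 over the 8 cultures, so that the probes did not rank the cultures alike, although WT replicate 2 was highest on each.

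**Figure D1:**
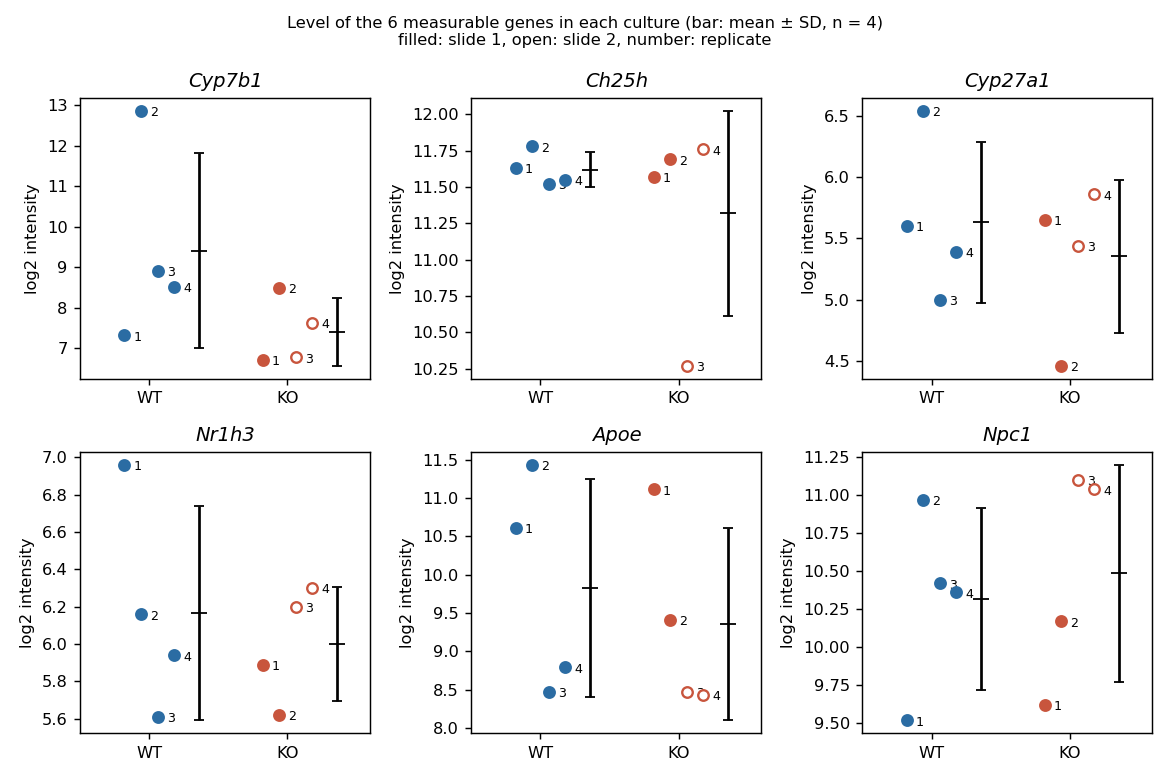
Log2 intensity (vertical axis) of the 6 genes that passed the filter, in each WT (blue) and KO (red) culture. Numbers are replicates, filled points are slide 1, open points are slide 2, and the bar is the mean ± SD of 4 cultures. WT replicate 2 stands at 12.86 for Cyp7b1, whose difference is -2.0, or -0.85 without that culture. KO replicate 3 stands at 10.27 for Ch25h, whose difference is -0.30, or 0.05 without that culture.

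Of the liver X receptors, Nr1h3 was measured and Nr1h2 was not. Nr1h3 stood at 6.96, 6.16, 5.61 and 5.94 in WT and 5.89, 5.62, 6.20 and 6.30 in KO. WT replicate 1 was the highest and the other 7 cultures of both groups were interleaved. The probe was detected on all 8 arrays but was dim. Its scanner intensity was nearly the same on each, 155.8 to 167, where the array medians were 94.7 to 128.1. The spread in level thus depends on background correction and normalization. The log2 difference was -0.17 with a standard error of 0.30, and 0.10 without WT replicate 1. It was -0.41 within slide 1 and -0.06 in the authors' deposited value table. The Nr1h2 probe was detected on 0 of 8 arrays, with levels of 4.15 to 4.36, so no difference can be read from it.

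The transporter genes were at background. The single Abcg1 probe was detected on 0 of 8 arrays, at 4.17 to 4.44. Abca1 was detected on WT replicate 1 alone, at 5.28, and stood at 4.16 to 4.61 in the other 7 cultures, none of them well above background. With detection on 1 of 8 arrays, no difference between the groups can be read from Abca1. These values limit what the probes saw and do not show that the transporters are absent. Mylip was detected by 1 of its 2 probes on KO replicate 4 alone, at 4.91, and stood at 4.20 to 4.40 through that probe in the others.

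Apoe varied widely in both groups. Apoe had log2 intensities of 10.61, 11.43, 8.47 and 8.79 across WT replicates 1 to 4, and 11.11, 9.41, 8.47 and 8.43 across KO replicates 1 to 4. The 3 high cultures were WT replicates 1 and 2 and KO replicate 1, while the rest lay below 9.5, so the groups overlapped over nearly their whole range. The difference was -0.47 with a standard error of 0.80. It was 0.06 without WT replicate 2, 0.43 within slide 1 and -0.39 in the authors' deposited value table.

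Apoe, a gene that macrophages also express, moved with the macrophage markers. Their centred mean was 1.52, 2.10, -1.60 and -0.05 across WT replicates 1 to 4, and 0.90, 0.47, -2.21 and -1.13 across KO replicates 1 to 4. Over the 8 cultures Apoe correlated with this mean at r = 0.91 and rho = 0.90. The value was r = 0.88 without the 2 cultures farthest from the median of the marker mean, WT replicate 2 and KO replicate 3, 0.86 without WT replicate 2 alone and 0.90 within slide 1. This is a description over 8 cultures that share their passage and, but for 2, their slide, and it was singled out after the values were seen. The part of macrophage RNA in the Apoe level was not tested. Nr1h3, also expressed by macrophages, correlated with the same mean at r = 0.29, Ch25h at 0.63 and Cyp7b1 at 0.47. Without WT replicate 2 and KO replicate 3 these were 0.48, 0.03 and -0.60.

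**Figure D2:**
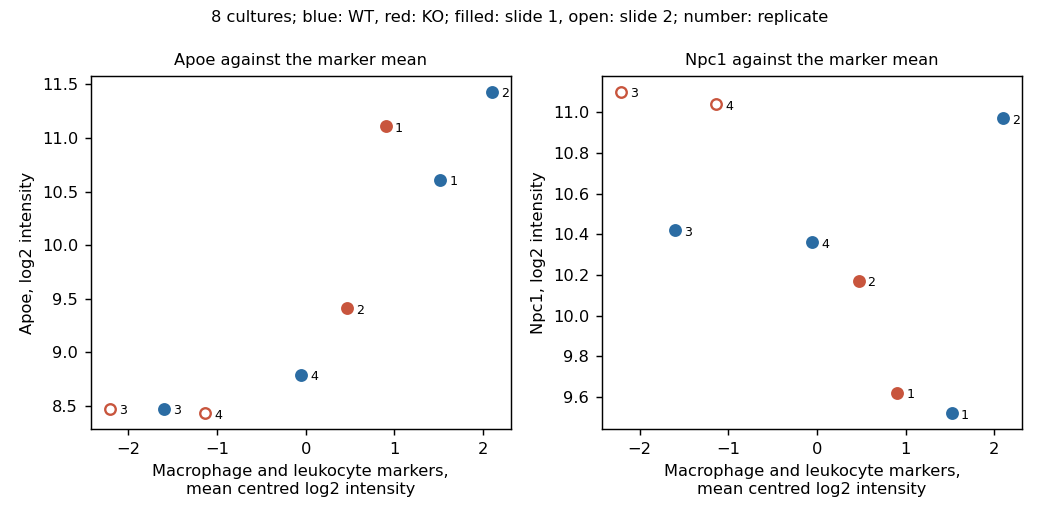
Log2 intensity of Apoe (left) and of the brightest Npc1 probe (right) against the mean centred log2 intensity of 18 macrophage and leukocyte markers, 1 point per culture. Apoe runs from 8.43 to 11.43 along the marker mean (r = 0.91), while for Npc1 WT replicate 2 lies apart from the downward run of the other 7 cultures (r = -0.90 over those 7, -0.49 over all 8).

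Npc1 had 7 probes, of which 4 passed the filter, and they disagreed. Through the brightest the levels were 9.52, 10.97, 10.42 and 10.36 across WT replicates 1 to 4, and 9.62, 10.17, 11.10 and 11.04 across KO replicates 1 to 4. The highest cultures were KO replicates 3 and 4, the arrays of slide 2, followed by WT replicate 2. The difference through this probe was 0.16 with a standard error of 0.41, 0.38 without WT replicate 2 and -0.42 within slide 1. The next brightest probe gave a difference of -0.18 and stood lowest in KO replicate 3 (9.25), WT replicate 2 (9.28) and KO replicate 4 (9.29), the same 3 cultures that were highest on the brightest probe. It correlated with the brightest probe at r = -0.61 over the 8 cultures. Another bright probe gave a difference of -0.45 and stood highest in WT replicate 2, at 9.67. The dimmest passing probe, detected on 4 arrays, gave a difference of 0.39. The relation of the brightest probe to the macrophage markers, r = -0.49 over 8 cultures and -0.90 without WT replicate 2, was -0.07 within slide 1. The next brightest probe correlated with the markers at r = 0.03 and the remaining bright probe at 0.23. Where these probes lie in the transcripts was not analysed here, so no single Npc1 direction can be stated.

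Of the 6 members tested, 0 passed a limma adjusted p of 0.05, as did 0.0% of all genes. 0 had an unadjusted p under 0.05, against 5.74% of all genes, and 0 had groups that did not overlap, against 3.28% of all genes (1.67% with KO lower and 1.61% with KO higher). 1 member, Cyp7b1, had means at least 2-fold apart, against 1.73% of all genes (1.19% with KO lower). 5 of the 6 were lower in KO by sign, with a median log2 difference of -0.29, against a median of -0.0024 and 50.4% lower over all genes. Without WT replicate 2 the members' median was -0.07. Since the members were chosen with this contrast in view, nothing is read from these counts.

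**Figure D3:**
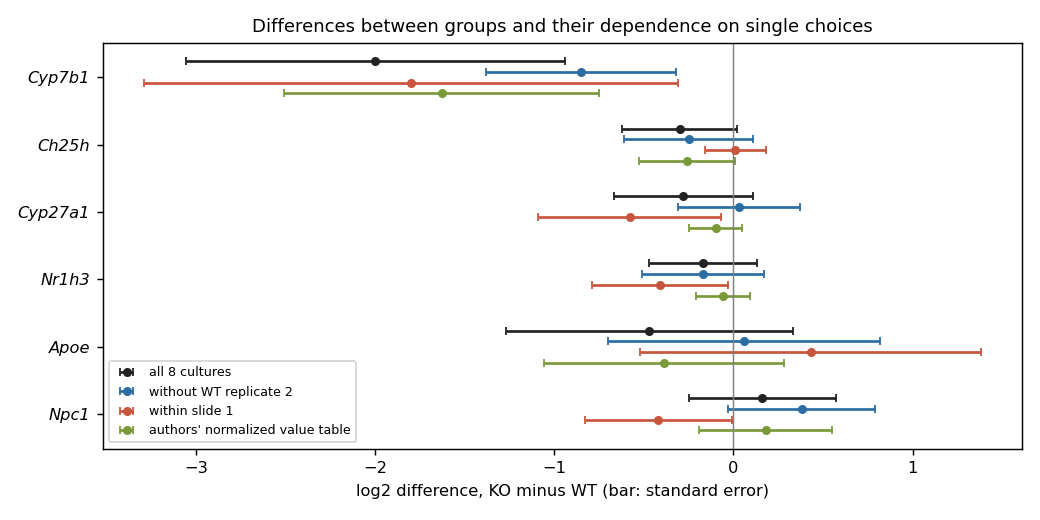
Log2 difference, KO minus WT, with its standard error, for the 6 genes under 4 settings. Cyp7b1 moves from -2.0 to -0.85 without WT replicate 2, and Ch25h, Apoe and Npc1 lie on the other side of 0 within slide 1 (0.01, 0.43 and -0.42).

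The relation of the enzyme genes to interferon response was looked at through Usp18, which encodes a protease that removes ISG15 from proteins and dampens interferon signalling. Usp18 stood at 6.94, 10.06, 6.55 and 6.89 across WT replicates 1 to 4, and 7.36, 6.37, 6.25 and 6.79 across KO replicates 1 to 4. WT replicate 2 was again alone at the top, and KO replicate 1 was next. Over the 8 cultures Cyp7b1 correlated with Usp18 at r = 0.83 but at rho = 0.14. Without WT replicate 2 the values were r = -0.32 and rho = -0.29 over 7 cultures, and without the 2 cultures farthest from the median, WT replicate 2 and KO replicate 3, r = -0.83 over 6. The relation thus rested on WT replicate 2. KO replicate 1, second highest for Usp18, had the lowest Cyp7b1 of all, 6.71. The second Usp18 probe correlated with Cyp7b1 at r = 0.50, and at -0.80 without WT replicate 2.

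Ch25h correlated with Usp18 at r = 0.39 and rho = 0.52 over the 8 cultures, a lower r but a higher rho than those of Cyp7b1. In WT replicate 2, with the highest Usp18, Ch25h was 11.78, 0.03 log2 units above the next culture. The value of r was 0.52 without WT replicate 2 and -0.25 without that culture and KO replicate 3. The second Usp18 probe correlated with Ch25h at r = 0.10, and at -0.16 without WT replicate 2. Against the centred mean of the 18 other interferon-stimulated genes, Cyp7b1 had r = 0.83 and rho = -0.07, and r = -0.73 without WT replicate 2. Ch25h had r = 0.18 and rho = 0.02, and r = -0.33 and rho = -0.46 without that culture. Of the other members, Apoe and Cyp27a1 correlated with Usp18 at r = 0.72 and 0.79, Npc1 at 0.19 and Nr1h3 at 0.13. Without WT replicate 2 these were 0.71, 0.58, -0.64 and 0.23, but the other passing probes of Cyp27a1 gave -0.57 and -0.40. These come from 24 relations computed over the 8 cultures, 6 members against 4 measures. Each was also computed over smaller sets of cultures, and some through other probes. None was tested. Within the other 7 cultures Usp18 spanned only 6.25 to 7.36 and correlated with the other interferon-stimulated genes at r = 0.35. Usp18 also correlated with the macrophage marker mean, at r = 0.68 and rho = 0.83 over the 8 cultures. Without WT replicate 2 these were 0.63 and 0.75. The part of macrophage RNA in the relations to Usp18 was not tested.

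**Figure D4:**
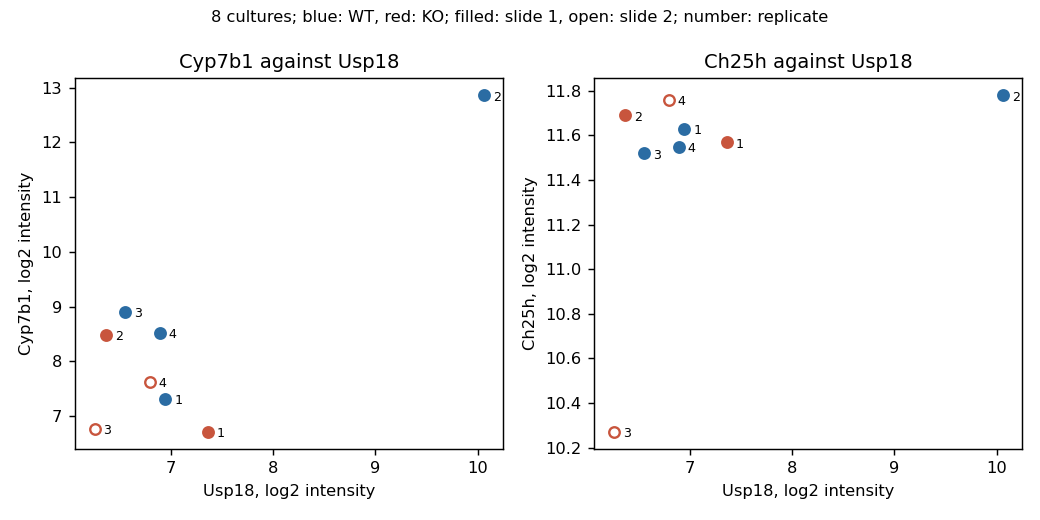
Log2 intensity of Cyp7b1 (left) and Ch25h (right) against that of Usp18, 1 point per culture. WT replicate 2 lies alone at the upper right for Cyp7b1 (12.86 against 10.06), and among the other 7 cultures Cyp7b1 does not climb with Usp18. Ch25h is nearly level but for KO replicate 3 at 10.27.

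The genes whose pattern over the 8 cultures was most like that of Cyp7b1 were Tmem176b, Dtx4, Plekhm1, Mrps24 and Cdk20, with r between 0.976 and 0.985. These 5 were not among the interferon-stimulated genes listed, and their r without WT replicate 2 was between 0.89 and 0.94. Dtx4, an E3 ubiquitin ligase gene of the Deltex family, stood at 7.93, 10.13, 8.48 and 8.23 in WT and 7.77, 8.06, 7.63 and 8.17 in KO. Tmem176b, a transmembrane protein gene expressed in myeloid cells, stood at 11.18, 12.53, 11.76 and 11.43 in WT and 11.13, 11.49, 11.03 and 11.40 in KO. Both follow Cyp7b1 also among the lower cultures, where WT replicate 3 exceeds WT replicate 1 and KO replicate 3 lies near the bottom. The 5 genes were picked from 11858 by their r over these same 8 cultures. Their match, also among the lower cultures, is thus built into the choice, and nothing is read from it. Usp18 came 430th in likeness to Cyp7b1 among 11858 genes.

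The genes most like Ch25h were the predicted genes Gm5801 and Gm5069, the mitochondrial import gene Grpel1, the glycosyltransferase gene B3galt6 and Heatr1, which acts in ribosome production. Their r lay between 0.933 and 0.964, but rho between 0.48 and 0.88. Each of the 5 was lowest in KO replicate 3, B3galt6 at 6.63 against 8.30 to 9.11 in the other cultures. They were picked in the same way, so nothing is read from their match. Usp18 came 2530th in likeness to Ch25h.

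**Figure D5:**
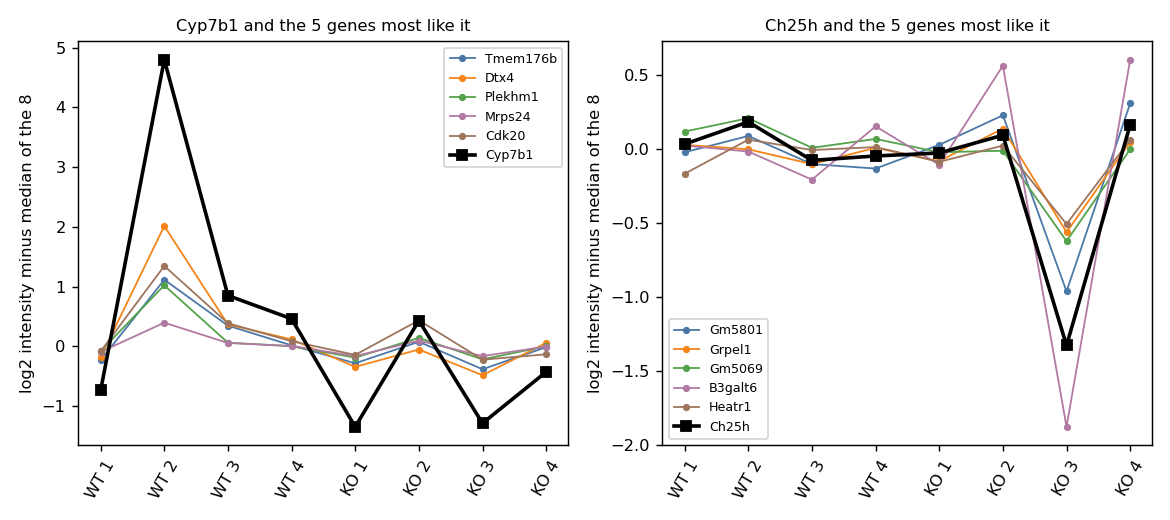
Log2 intensity of Cyp7b1 (left, black) and Ch25h (right, black) and of the 5 genes with the highest Pearson r to each, minus each gene's median over the 8 cultures, which are ordered along the horizontal axis. The Cyp7b1 panel peaks in WT replicate 2, and the Ch25h panel dips in KO replicate 3.

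The remaining genes of oxysterol handling were taken from lists of named genes. Of 16 other enzymes of oxysterols and the sterol side chain, 7 passed the filter and 0 passed an adjusted p of 0.05 in limma, 2 being higher and 5 lower in KO by sign, with a median log2 difference of -0.14, or -0.07 without WT replicate 2. Acox2, a peroxisomal oxidase that shortens the bile acid side chain, stood at 5.98, 5.36, 5.11 and 5.73 in WT and 4.96, 4.30, 4.85 and 4.90 in KO. Its groups did not overlap, which held with KO lower for 1.67% of all genes. The difference was -0.79 (standard error 0.24) at a limma adjusted p of 0.83. Its probe was detected on 3 of the 4 KO arrays, so the KO levels lie near background. Hsd3b7, the enzyme that acts on the products of Cyp7b1, was detected on every array at 9.66 to 11.53, with WT replicate 2 highest and a difference of -0.40, or -0.09 without that culture. The liver enzyme genes Cyp7a1, Cyp8b1 and Baat were detected on 0 arrays. Scp2 and Hsd17b4, the list's only genes higher by sign, differed by 0.07 and 0.01, and by 0.10 and 0.05 without that culture. Within slide 1 they were -0.07 and -0.16.

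Among 26 genes of oxysterol sensors and their partners, 18 passed the filter, 8 were higher and 10 lower by sign, and 0 passed in limma, with a median of -0.02, or -0.11 without WT replicate 2. Gpr183, the immune cell receptor for oxysterols that Ch25h and Cyp7b1 make together, was detected on at most 3 arrays. The LXR partner gene Rxra was dim, at 4.83 to 5.84 over the 8 cultures. Srebf2, the transcription factor that oxysterols hold inactive through the Insig proteins, stood at 9.06 in WT replicate 2 and at 7.69 to 8.33 in the other 7. Ncoa6, a coactivator of nuclear receptors, and Rora differed by 0.38 and 0.12, and the sterol-binding protein genes Osbpl8 and Osbpl1a by -0.46 and -0.41. Rora was 0.20 and Osbpl8 -0.25 without WT replicate 2. None of these differences exceeded 2 standard errors. Within slide 1 Osbpl1a was 0.05 and Rora 0.005.

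Among the other LXR target genes, WT replicate 2 again stood out. 13 of 21 listed passed the filter, 3 higher and 10 lower in KO by sign and 0 past the threshold in limma, with a median of -0.34 that became -0.02 without WT replicate 2. That culture held the highest level of 8 of the 13, against 21.0% of all genes. By level alone, Lpl, the lipoprotein lipase, stood at 10.90, 13.00, 9.38 and 9.45 in WT and 10.63, 10.04, 8.18 and 10.12 in KO, and Pltp, which transfers phospholipid between lipoproteins, at 4.76, 9.37, 6.35 and 6.22 in WT and 5.96, 5.63, 6.60 and 6.59 in KO. Tgm2 reached 13.40 in WT replicate 2 against 10.81 to 12.33 in the others. Lpl, Pltp and Tgm2 were named after their values were seen. The LXR targets Abca1, Abcg1 and Mylip, among the members, were not detected in WT replicate 2. Scd2 and Scd1, desaturases, differed by -0.62 and -0.43, and Lpcat3 and Abca9 by 0.23 and 0.25. Within slide 1 Scd2 was -0.17 and Lpcat3 0.08. Abca9 was detected on 2 of the 4 WT arrays. Scd1 was -0.22 and Abca9 0.16 without WT replicate 2. Macrophages also express Lpl and Apoc2, and the macrophage marker mean was highest in that culture as well. Its part in these levels was not tested.

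Genes of cholesterol synthesis, which are switched by SREBP2 and repressed by oxysterols, were lower by sign in 14 of 19 tested and higher in 5, with 0 past the threshold in limma and a median of -0.16, or -0.05 without WT replicate 2. Idi1, an enzyme of the mevalonate pathway, stood at 7.72, 7.58, 7.50 and 7.72 in WT and 7.02, 7.68, 6.16 and 5.78 in KO. Its lowest values were those of KO replicates 3 and 4, and the difference of -0.97 (standard error 0.38) was -0.28 within slide 1. Mvd differed by -0.43, and Hsd17b7 and Mvk by 0.23 and 0.15. Mvd was -0.20, Hsd17b7 0.13 and Mvk 0.04 without WT replicate 2. In KO replicate 2 and WT replicate 2 the centred mean of the list was 0.31 and 0.35, against -0.28 to 0.02 in the other cultures.

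For lysosomal and intracellular cholesterol handling, 7 of 16 tested genes were higher and 9 lower by sign, with a median of -0.04, or 0.07 without WT replicate 2, and 0 past the threshold in limma. Npc2, the soluble partner of Npc1 that hands it cholesterol, stood at 11.57, 12.26, 11.88 and 11.77 in WT and 11.62, 11.70, 10.94 and 11.18 in KO. Its difference of -0.51 (standard error 0.23) was -0.21 within slide 1. Lamp2, Gramd1a and Vps4a differed by -0.44, 0.52 and 0.21, and Lamp2 by -0.24 without WT replicate 2. Vps4a was 0.06 within slide 1. Of lipoprotein receptors and apolipoproteins, 4 of 9 tested genes were higher and 5 lower by sign, with a median of -0.33 that became 0.04 without WT replicate 2 and 0 past the threshold in limma. Lrp1, an endocytic receptor for apolipoprotein E, stood at 8.55, 9.47, 8.98 and 8.82 in WT and 8.61, 8.15, 7.54 and 7.36 in KO. The groups overlapped by 1 culture on each side, and the difference of -1.04 (standard error 0.31, limma adjusted p of 0.83) was -0.58 within slide 1, which leaves out the lowest cultures, KO replicates 3 and 4. Apob, Scarb1 and Lcat differed by -0.37, 0.36 and 0.31. Apob was detected on 2 of the 4 KO arrays, and Lcat was -0.20 within slide 1.

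Of 33 interferon-stimulated genes listed, 19 passed the filter, 4 higher and 15 lower in KO by sign and 0 past the threshold in limma. The median of -0.35 was 0.14 without WT replicate 2, the culture in which Cyp7b1 was also highest. Samhd1 and Gbp2 differed by 0.55 and 0.41, or 0.47 and 0.79 without that culture, and Zbp1 and Trim30a by -0.59 and -1.26, or -0.35 and -0.47 without it. Trim30a was detected on 3 of the 4 KO arrays. It stood at 4.25 in KO replicate 4, against 5.95 to 6.51 in the other KO cultures, and its difference was -0.56 within slide 1.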

How the data were processed

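RNA of 4 WT and 4 KO cultures was measured on 8 arrays. For each of 46237 probes, per the file headers, the deposited scanner output holds the mean intensity over beads, its SD, the count of beads (median 38 to 40) and a detection p-value. The value table holds intensities the authors normalized between arrays on a linear scale, as its medians show (113.4 to 116.2). The authors' software was not given in the sources used here. Printed probe identifiers do not belong to the values beside them (Spearman -0.0083 to -0.0047 against the value table), so rows were matched by their ranks on the 8 arrays: 46237 of 46237 paired one to one, at 0.9999 or more. Names came from the platform annotation, updated through RefSeq (GRCm38.p6).

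Background correction and quantile normalization used neqc (limma 3.58.1, R 4.3.3; offset 16, background inferred from detection p-values, so levels near background are uncertain), which gives the log2 intensities used throughout; the deposited values themselves are not log2. Probes detected (p-value under 0.05) on at least 4 arrays were kept, 21275, and each of 11859 genes was represented by its brightest. Groups were compared with lmFit and eBayes, two-sided, Benjamini-Hochberg adjusted over all genes, with fold changes as KO minus WT. The fit was tested on simulated data. The number of arrays limits the precision.

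Members and lists were chosen with earlier results of these data known. Named were the members, Usp18, Tek, per pathway list the 2 genes with the smallest p in each direction, the 5 genes most like Cyp7b1 and Ch25h, and markers. Others named in the text (Myh11, Acta2, Cnn1, Rxra, Srebf2, Lpl, Pltp, Tgm2, Apoc2 and genes not detected) were chosen after their values were seen. A planned count of promoter motifs was not made, since no promoter sequence was used here.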

Additional observations from a re-analysis of the deposited data

Results flagged for a closer look

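3 of the values described lay far from the others of their group, among 24 groups of 4 cultures looked at. Chance flags about 1 group in 20. Usp18 was 10.06 in WT replicate 2, against 6.55 to 6.94 in the other WT cultures. Ch25h was 10.27 in KO replicate 3, against 11.57 to 11.76 in the other KO cultures. Abcg1 was 4.44 in WT replicate 3, against 4.19 to 4.21 in the other WT cultures, through a probe detected on 0 arrays, so this value is a difference within background. Cyp7b1 in WT replicate 2, at 12.86, was not far enough from the others by this measure, since WT replicates 1, 3 and 4 themselves spread from 7.32 to 8.91.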

How the results depend on the processing

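The count of genes past the threshold was 0 in limma under each of 17 alternatives. With an unadjusted p under 0.05 it was 681, and 1117 of 20289 genes without a filter on dim probes. The difference of Cyp7b1 kept its sign under all 17, between -2.70 and -0.85 when 1 culture was left out. Ch25h ranged from -0.45 to 0.05 when 1 culture was left out and was 0.01 with slide as a block. Cyp27a1 ranged from -0.49 to 0.03, Nr1h3 from -0.35 to 0.10, Apoe from -1.06 to 0.06 and Npc1 from -0.10 to 0.45. With slide as a block or within slide 1, which are the same estimate, Cyp27a1 was -0.58, Nr1h3 -0.41, Apoe 0.43 and Npc1 -0.42. Npc1 was -0.02 as the mean over its probes. The r of Cyp7b1 with Usp18 ranged from -0.32 to 0.92 and that of Ch25h from 0.39 to 0.53 when 1 culture was left out, the former negative only without WT replicate 2. Both ranges are for the brightest Usp18 probe, and through the second probe the r of Ch25h was 0.10 over the 8 cultures. The cause of these shifts was not tested beyond the culture, slide or probe named. With the replicate number as a block, 0 genes passed and 1005 had an unadjusted p under 0.05, and Cyp7b1 stayed at -2.0 with a standard error of 0.64 in place of 1.06 (limma adjusted p of 0.55) and Ch25h at -0.30. Deviations of same-numbered cultures correlated at 0.318, 0.210, 0.286 and 0.063, and each culture correlated best with its own number, a hint from the data only, so the block was not used. Signals near background limit Abca1, Abcg1, Nr1h2, Mylip, Cyp27a1 and Nr1h3, the last detected on all 8 arrays but dim. The same holds for Acox2, Abca9, Apob, Gramd1a, Scarb1 and Trim30a, none of which was detected on every array.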
